A study of Homo sapiens with 10 samples.

Results

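Here 10 genes that encode the core of the apicobasal polarity machinery were followed through RNA-seq of the human colon carcinoma line Caco-2. They were chosen by symbol and fall into 3 modules, which are the Scribble module (SCRIB, DLG1, LLGL1 and LLGL2), the Par module (PARD3, PARD6B, PRKCI and PRKCZ) and the Crumbs module (MPP5 and CRB3). These are 10 of the 60554 genes in the tables, and all 10 had counts. The study infected Caco-2 cells with a lentivirus for dCas9-KRAB, a Cas9 that binds DNA without cutting it joined to a repressor domain, and a single puromycin-selected clone was then infected with hygromycin-resistance plasmids. An empty guide plasmid gave gCtl (5 libraries), and guide g1 (3 libraries) or guide g2 (2 libraries) was directed at the lncRNA LHFPL3-AS2. All 3 groups therefore share the repressor and 1 parental clone, and the control plasmid carried no guide at all. Whether libraries of a group came from separate cultures is not stated, so p-values measure the spread between these libraries, which may be technical.

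Epithelial cells keep an apical and a basolateral side apart with sets of proteins that exclude each other from their own stretch of membrane. Scribble, the Dlg proteins and the Lgl proteins mark the basolateral side. Par3, Par6 and atypical protein kinase C work at and above the junctions, where the kinase phosphorylates Lgl proteins and drives them off the apical membrane. Crumbs, with the scaffolds Pals1 (the product of MPP5) and Patj, sets up the apical membrane. In intestinal epithelium this arrangement underlies tight junctions, the brush border and the orientation of the dividing cell's spindle.

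The libraries held between 3838803 and 8730468 estimated counts each, so that 1 count was worth between 0.115 and 0.260 RPM (reads per 1000000 counts of a library). Library pairs within a group, 14 in all, differed by more than the sampling of reads gives (chi-square per degree of freedom from 4.28 to 26.0), so no pair was merged as 1 library deposited again. Of 10 intestinal epithelial markers, 9 had over 3 counts in every library, and CDX1 had at most 3. Their summed level ranged from 1939 to 2520 RPM in gCtl and from 1805 to 2176 RPM in the libraries labelled g1 or g2. Mesenchymal markers summed to 6.25 to 12.4 RPM in gCtl and 7.81 to 14.8 RPM in g1 and g2, immune markers to 13.8 to 24.01 and 12.4 to 29.7 RPM, and endothelial markers to 2.15 to 3.66 and 2.20 to 10.1 RPM. CDH2, LUM, CDH5 and KDR had at most 3 counts in every library. Single markers differed between the groups by edgeR. CD14 was called lower with g1 and g2 as 1 group (log2 fold change -1.67) and with g2 (-2.63), but not with g1. PECAM1 was called higher with g1 (1.29), and KRT20 was called higher (1.91) and KRT18 lower (-0.78) with g2. Their part in the results was not tested. In bulk RNA, fewer cells that express a gene and less RNA of it per cell cannot be told apart.

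The targeted lncRNA was measured first, as a check of the labels. LHFPL3-AS2 stood at 1.73, 0.840, 3.73, 1.73 and 3.12 RPM in gCtl, at 3.07, 3.95 and 2.03 RPM in g1 and at 2.16 and 6.01 RPM in g2. The ranges overlapped and the mean was higher, not lower, in the guide libraries (log2(RPM + 1) difference 0.47, exact two-sided permutation test, p = 0.190). These tables therefore do not show the targeted RNA reduced, and gCtl, g1 and g2 are used throughout as the labels of the libraries, directions included.

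The 10 genes differed widely in level, and 3 of them were too low to test. On the per-length scale (TPM, worked out from the counts and transcript lengths) the order of gCtl means ran from DLG1 (189 ± 22.6, SD, n = 5) through PARD3 (85.3 ± 5.70), PARD6B (56.5 ± 6.59), PRKCI (29.4 ± 2.86), LLGL2 (18.0 ± 3.64), MPP5 (11.7 ± 2.65) and SCRIB (7.97 ± 2.31) to CRB3 (1.56 ± 1.15), PRKCZ (1.04 ± 0.713) and LLGL1 (0.361 ± 0.260). LLGL2 and MPP5, MPP5 and SCRIB, CRB3 and PRKCZ, and PRKCZ and LLGL1 were neighbours whose gCtl ranges overlapped. Since QuantSeq reads start near the polyA tail and do not grow in number with length, TPM lowers long transcripts, and by RPM, where a read counts the same in every gene, PARD6B stood first with 190 ± 18.3 RPM and DLG1 second with 152 ± 18.0 RPM. In the RPM of gCtl, PARD6B lay at percentile 94.9 of all genes tested and SCRIB at percentile 15.2, and LLGL1, CRB3 and PRKCZ were lower than nearly all of them (percentiles 0.619, 0.567 and 0.292).

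Genes were tested with edgeR where they had a protein-coding transcript and over 3 RPM in at least 20% of the libraries, which 11640 genes and 7 of the 10 members met. A gene was called where the Benjamini-Hochberg adjusted p was at most 0.05 and the fold at least 1.5. With g1 and g2 as 1 group against gCtl, SCRIB and DLG1 of the Scribble module fell, MPP5 of the Crumbs module rose, and none of the 3 Par genes tested was called. These are 3 of the 7 members tested, beside 19.2% of all genes tested (11.0% lower, 8.14% higher). SCRIB entered the test through its gCtl libraries, since 4 of them and none of the g1 or g2 libraries exceeded 3 RPM, so it had to be lower there to be tested and the count of 3 is not support for the group. LLGL1, PRKCZ and CRB3 did not pass the filter. By CPM (counts per 1000000 after TMM scaling of the library sizes), SCRIB, DLG1 and MPP5 did not overlap between gCtl and the 5 guide libraries, as 15.5% of all genes tested did not.

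SCRIB encodes Scribble, the scaffold that gives the basolateral module its name, and lies on the minus strand of chromosome 8 (GRCh38, 143790920 to 143815379). It had 20, 27, 28, 18 and 15 counts in the gCtl libraries, 7, 4 and 12 in g1 and 4 and 7 in g2. As CPM, gCtl replicates 1 to 4 stood between 4.33 and 5.0 and replicate 5 at 2.64, while g1 stood at 1.17, 0.844 and 1.46 and g2 at 0.717 and 1.02. All 5 guide libraries lay below all 5 gCtl libraries. The log2 fold change was -2.01 ± 0.35 (SE) with both guides (edgeR adjusted p = 0.00121). It was -1.85 ± 0.42 for g1 (edgeR adjusted p = 0.00629) and -2.28 ± 0.52 for g2 (adjusted p = 0.00501). The difference of g2 against g1 was -0.43, with a 95% interval of -1.66 to 0.81. SCRIB passed the RPM filter through gCtl libraries alone, so that filter favoured a fall in these tests. A fit over every biotype kept genes by total count instead and gave -2.06 with both guides (edgeR adjusted p = 0.00135). That fit gave -1.89 for g1 (edgeR adjusted p = 0.00872) and -2.36 for g2 (adjusted p = 0.00596).

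DLG1 encodes the Discs large scaffold, the partner of Scribble at the lateral membrane, and lies on the minus strand of chromosome 3 (GRCh38, 197042560 to 197299300). Its level was 125, 136, 167, 140 and 168 CPM in gCtl, 106, 102 and 96.4 CPM in g1 and 80.5 and 62.9 CPM in g2. The 3 groups did not overlap, g1 lay between gCtl and g2, and with both guides the gene fell by 0.72 on the log2 scale (SE 0.16, edgeR adjusted p = 0.00472). Against gCtl the g2 difference was called (-1.04 ± 0.17, edgeR adjusted p = 0.000671), whereas g1 passed on p but was under the 1.5-fold minimum (-0.54 ± 0.15, adjusted p = 0.0171). The direct comparison of g2 with g1 gave -0.50 ± 0.18 (edgeR adjusted p = 0.126), so the larger fall with g2 was not called. The stricter test of the fold itself against 1.5 called DLG1 for g2 (edgeR glmTreat, adjusted p = 0.0325) and not for g1 and g2 as 1 group (adjusted p = 0.467).

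LLGL2, one of a pair of Lgl genes and the main one in epithelia, was measured at 14.7, 13.4, 13.6, 16.6 and 12.3 CPM in gCtl, at 13.5, 8.65 and 7.55 CPM in g1 and at 9.15 and 10.8 CPM in g2. Only g1 replicate 1 reached into the gCtl range. The difference was -0.51 ± 0.20 on the log2 scale with both guides together (edgeR adjusted p = 0.0718), and the gene was called once g1 replicate 1 was left out (-0.64). LLGL1, its paralog, held 3, 2, 4, 10 and 9 counts in gCtl, 13, 14 and 18 in g1 and 16 and 9 in g2. In a fit over every biotype, for genes with 10 counts or more, LLGL1 had a log2 fold change of 0.95 with an interval of -0.08 to 1.98 (edgeR adjusted p = 0.232), opposite in sign to the other 3 genes of its module, and gCtl replicates 4 and 5 overlapped the guide libraries.

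None of the 3 Par genes tested was called for either guide, beside 16.8% of all genes with g1 and 23.7% with g2. With 3 genes, this count is not read as a trait of the module. PARD3, the scaffold that recruits Par6 and the kinase, stood at 90.0, 91.8, 89.8, 83.5 and 89.2 CPM in gCtl, 101, 80.6 and 101 CPM in g1 and 114 and 132 CPM in g2. It was higher in both g2 libraries than in any other, with a log2 fold change of 0.47 ± 0.14 against gCtl (edgeR adjusted p = 0.0255) that is under the fold minimum, and with g1 the value was 0.08 ± 0.13. PARD6B, which encodes a Par6 protein and has most RPM of the 10 genes, was at 206, 169, 168, 176 and 205 CPM in gCtl, 247, 190 and 269 CPM in g1 and 191 and 165 CPM in g2. Its g1 difference was 0.35 ± 0.15 (edgeR adjusted p = 0.0976) and its g2 difference -0.05 ± 0.17 (adjusted p = 0.845).

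The atypical kinases were likewise not called. PRKCI, which encodes the kinase of this module that was readily counted here, stood at 58.7, 40.8, 41.3, 49.1 and 49.6 CPM in gCtl, 28.8, 36.7 and 40.9 CPM in g1 and 50.9 and 32.0 CPM in g2. Its log2 fold change with both guides together was -0.34, with an interval of -0.69 to 0.02 (edgeR adjusted p = 0.150). PRKCZ, for the second atypical kinase, had 1, 6, 2, 7 and 3 counts in gCtl, 4, 7 and 8 in g1 and 1 and 4 in g2, and the interval of its log2 fold change in the all-biotype fit ran from -1.47 to 1.37. These low counts do not settle whether PRKCZ changed within that interval.

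MPP5, the gene of the Pals1 scaffold, lies on the plus strand of chromosome 14 (GRCh38, 67241109 to 67335819) and was the member that rose. It stood at 39.5, 33.6, 39.6, 33.0 and 32.0 CPM in gCtl, at 47.0, 50.6 and 70.9 CPM in g1 and at 55.9 and 62.5 CPM in g2. Every guide library exceeded every gCtl library, and the log2 fold change was 0.67 ± 0.16 for g1 (edgeR adjusted p = 0.00794) and 0.74 ± 0.18 for g2 (adjusted p = 0.00686). The size lay close to the fold minimum, and the call of each guide rested on 1 library, since it was lost for g1 without replicate 3 (0.44) and for g2 without replicate 2 (0.66). Limma did not call MPP5 in any of the 3 comparisons with gCtl, at 0.58 on the log2(RPM + 1) scale and 0.51 on the log2(TPM + 1) scale with both guides. CRB3, the epithelial Crumbs protein, had 8, 5, 5, 5 and 3 counts in gCtl, 7, 3 and 3 in g1 and 5 and 4 in g2, with a log2 fold change of -0.62 and an interval of -1.84 to 0.60 in the all-biotype fit.

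**Figure D1:**
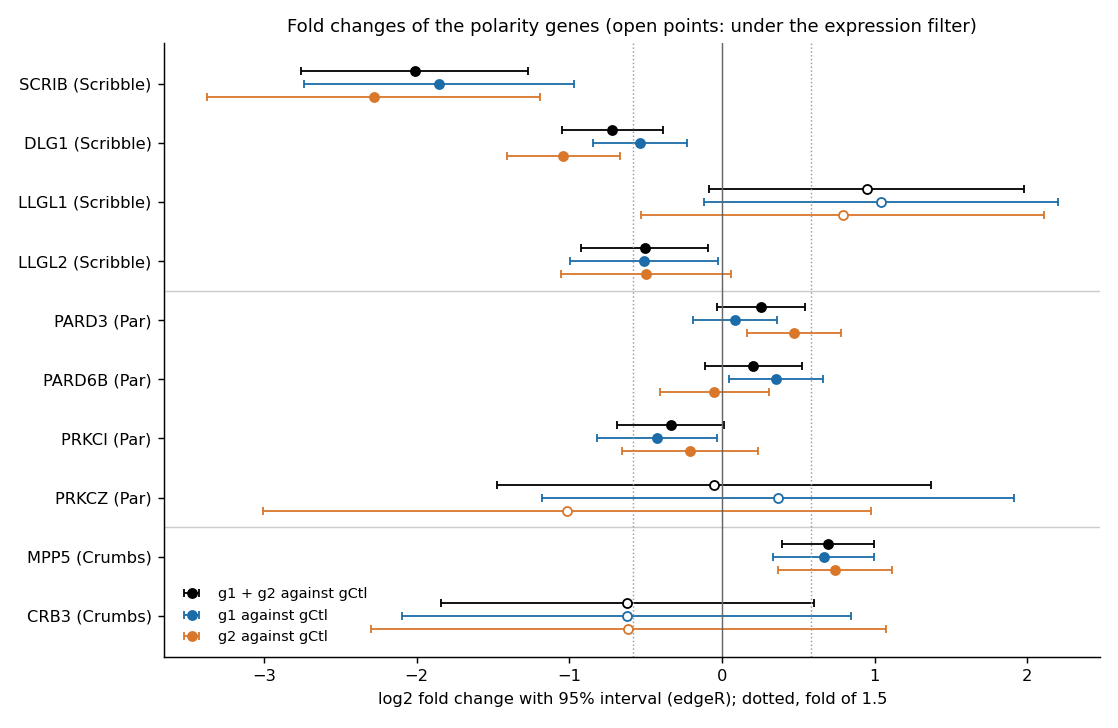
Log2 fold change (horizontal axis) of each polarity gene for g1 and g2 together (black), g1 (blue) and g2 (orange) against gCtl, with 95% intervals from edgeR and dotted lines at a fold of 1.5. The intervals of SCRIB and DLG1 lay below 0 and those of MPP5 above 0 in all 3 comparisons, and the 3 genes under the expression filter (open points, all-biotype fit) had intervals that crossed 0.

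By guide, 2 of the 7 members tested were called with g1 (SCRIB and MPP5), beside 16.8% of all genes, and 3 with g2 (SCRIB, DLG1 and MPP5), beside 23.7%. Without overlap from gCtl were 3 of the 7 with g1 (SCRIB, DLG1 and MPP5), beside 26.6% of all genes, and 5 with g2 (these and LLGL2 and PARD3), beside 38.0%. Both comparisons use the same 5 gCtl libraries. SCRIB is in each of these counts and had to be lower in the guide libraries to be tested. These counts are therefore not support for the group. No member was called between g2 and g1, beside 4.98% of all genes, and DLG1 and PARD3 did not overlap, beside 32.9%. The smallest edgeR adjusted p values of the members between the guides were 0.126 (DLG1), 0.179 (PARD3) and 0.222 (PARD6B). Limma on log2(RPM + 1) or log2(TPM + 1) called DLG1. Summed over its members, the Scribble module stood at 167 ± 18.0 CPM in gCtl (SD, n = 5), 115 ± 7.58 in g1 (n = 3) and 84.6 ± 12.2 in g2 (n = 2), and most of that sum is DLG1. The Par module stood at 322 ± 25.4, 366 ± 52.4 and 343 ± 18.8 CPM, and the Crumbs module, which is nearly all MPP5, at 36.6 ± 4.04, 56.9 ± 12.5 and 60.0 ± 4.42 CPM. These sums are given as a description, with no test.

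Because the tables give counts per transcript, the counts of each gene could be placed along its annotated 3′ ends. For DLG1 and PARD3, as for SCRIB and LLGL2, the most counted transcript model was not a full-length one. The last 100 bases are shown for the models of DLG1 and PARD3, to which more of these genes' counts were assigned than to any other. Sequences are from GENCODE release 29 (GRCh38), read 5′ to 3′ on the minus strand, and capitals mark the longest run of A.
DLG1-014: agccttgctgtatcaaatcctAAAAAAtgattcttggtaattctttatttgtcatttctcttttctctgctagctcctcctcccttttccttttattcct
PARD3-008: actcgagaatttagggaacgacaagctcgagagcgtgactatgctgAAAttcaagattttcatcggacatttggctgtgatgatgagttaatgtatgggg
DLG1-014 is annotated as a retained intron. It is 732 bases long and ends at chromosome 3, position 197136324, and of the 355 bases of its last exon 137 are coding in other DLG1 models and 218 lie in no other exon. PARD3-008 is a processed transcript of 806 bases that ends at chromosome 10, position 34269787, and all 113 bases of its last exon are coding in other PARD3 models. Neither holds a polyadenylation hexamer (AATAAA or ATTAAA, sense strand) in its last 50 bases, which 31.3% of all annotated transcripts and 47.9% of the transcripts with at least 10 counts do. Among the leading transcripts of the members' 28 end groups, 12 held one, including PRKCI-001, MPP5-004, PARD6B-001, PARD3-004 and, at the last exon of DLG1, DLG1-012.

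DLG1 counts lay mainly at 3 groups of ends, with ends within 500 bases of each other counted as 1. DLG1-014 held 44.7% of the gene's counts in gCtl and 46.2% in the guide libraries, the ends of the last exon (197042560 to 197043033) 37.0% and 39.4%, and the ends near 197194337, of short models from the 5′ part of the coding sequence, 10.5% and 4.63%. The last-exon group stood at 49.5, 51.7, 70.9, 52.1 and 56.6 RPM in gCtl, 37.3, 38.9 and 34.3 RPM in g1 and 28.6 and 31.4 RPM in g2. All 5 guide libraries were below all gCtl libraries (two-sided exact permutation p = 0.00794, which no 5 against 5 comparison can go under, and 0.0556 after adjustment over 28 end groups). DLG1-014 stood at 56.3, 71.6, 64.9, 65.3 and 81.2 RPM in gCtl, 59.2, 54.6 and 46.1 RPM in g1 and 22.4 and 21.3 RPM in g2. At this end g1 overlapped gCtl and both g2 libraries lay below the lowest g1 library, while at the last exon both guides lay below gCtl. Both guides also lay below gCtl at the ends near 197194337, at 1.03 to 6.50 RPM against 9.35 to 25.1 RPM. The two-sided exact permutation p there was again 0.00794 (0.0556 after adjustment).

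SCRIB had a single group of ends (143790920 to 143790926), where 2 models held nearly all counts. The full-length SCRIB-001 was assigned 31.2 counts in gCtl and 20.5 in the guide libraries, and SCRIB-008, a retained-intron model of 538 bases, 76.5 and 13.5. The share of SCRIB-008 was 70.1 ± 6.24% in gCtl and 48.3 ± 32.5% in the guide libraries (SD, n = 5 each), with an exact permutation p of 0.198. The models end within 5 bases of each other, and the gene sum does not depend on how Kallisto divided reads between them. LLGL2 counts lay mainly at an inner group of ends (75564700 to 75564723), led by the 1393-base LLGL2-005. This group held 75.3% of the gene's counts in gCtl and 76.4% in the guide libraries. The ends at the 3′ end of the gene (75574668 to 75575208) held 21.5% and 18.8%.

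The PARD3 counts of the g2 libraries were divided over the same ends in different proportions. PARD3-008 was at 46.3 and 82.9 RPM in g2 replicates 1 and 2, beside 37.3 to 47.4 RPM in gCtl and 33.8 to 46.0 RPM in g1. The ends of the last exon, led by PARD3-004, were at 39.4 and 21.9 RPM in the same libraries, beside 15.1 to 38.8 RPM in gCtl. The 3′ end of the full-length MPP5-004, which 2 models share, held 94.3% of MPP5 counts in gCtl and 94.6% in the guide libraries, at 31.9 to 39.2 RPM and 45.8 to 61.9 RPM. MPP5-004 itself held 84.8 ± 5.67% and 80.6 ± 10.2% (SD, n = 5 each). Among the 6 members with at least 10 counts in every library, the share of the leading transcript differed from gCtl by -6.89 to 1.56 percentage points, with exact permutation p from 0.0476 (PARD6B) to 1, and from 0.286 to 1 after adjustment over the 6.

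Some members share their 3′ end with a gene on the other strand, and the sources used here do not give Kallisto's strand setting. ATP6V1D, which encodes a vacuolar proton pump subunit, spans the last 1000 bases of MPP5 and had 726 counts in gCtl and 1181 in the guide libraries (log2 fold change 0.33 ± 0.17, edgeR adjusted p = 0.173). FAAP20 spans 935 of the last 1000 bases of PRKCZ (0.36 ± 0.17, adjusted p = 0.138), FLII 40 of those of LLGL1 (0.44 ± 0.20, adjusted p = 0.127) and DENND1C 15 of those of CRB3 (0.41 ± 0.22, adjusted p = 0.185). Overlap was taken over whole genes, introns included. Only reads from bases that lie in exons of both genes cannot be told apart if strand was not used. Their part in the members' values was not tested. No gene on the other strand reached the last 1000 bases of SCRIB, DLG1, LLGL2, PARD3, PARD6B or PRKCI.

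The wider polarity network was read from 4 lists with 59 genes, of which 52 passed the filter. With both guides together 5 of the 52 rose and 3 fell, or 15.4% against 19.2% of all genes tested, and the median log2 fold change was 0.12 against 0.02 over all genes. With g1, 8 were called (5 higher and 3 lower, 15.4%, beside 16.8% of all genes), and with g2, 14 (7 and 7, 26.9%, beside 23.7%). LIN7A entered the test through its gCtl libraries, since no g1 or g2 library exceeded 3 RPM, and GPSM1 through g1, since no gCtl library did, so each had to differ in that direction and these counts are not support for the lists. As for all genes, most partners were therefore not called.

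Of the Crumbs paralogs and partners, 2 of 10 tested rose and none fell with both guides together, beside 8.14% of all genes higher and 11.0% lower. With g2 alone 3 of the 10 were called (30%, beside 23.7% of all genes), the third being WWC1, which was lower (-0.63 ± 0.19, edgeR adjusted p = 0.0230). INADL, which encodes Patj, the multi-PDZ partner that Pals1 ties to Crumbs, stood at 37.7, 41.7, 45.0, 39.5 and 34.7 CPM in gCtl, 53.8, 50.6 and 75.4 CPM in g1 and 61.3 and 72.4 CPM in g2. Its log2 fold change was 0.66 ± 0.14 (edgeR adjusted p = 0.00454), with no overlap between gCtl and the guide libraries, though without g1 replicate 3 it was 0.58, under the fold minimum. MPP6 (Pals2), the paralog of MPP5, stood at 39.1 to 51.0 CPM in gCtl and 83.6 to 118 CPM in the guide libraries (1.08 ± 0.13, adjusted p = 0.000132). AMOTL1, an angiomotin family protein that binds Patj, passed on p but not on fold (0.53 ± 0.14, adjusted p = 0.0125).

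Of the Scribble paralogs and partners, 2 of 12 tested fell and none rose with both guides together (16.7% called, beside 19.2% of all genes). LIN7A, 1 of the 2, also binds Pals1 and could have been listed with the Crumbs partners instead. The directions counted in the Scribble and Crumbs lists depend on that placing. With g2 alone 5 were called (beside 23.7%), of which LRRC1 (0.94 ± 0.22, edgeR adjusted p = 0.00537) and MPP7 (0.90 ± 0.24, adjusted p = 0.0133) were higher. LIN7A, one of 3 LIN7 adaptors that bind Pals1 and Dlg-type scaffolds, had 34, 58, 61, 36 and 72 counts in gCtl, 14, 7 and 8 in g1 and 2 and 0 in g2. Both guides thus lay far below gCtl, at 8.50 to 12.7 CPM against 0.974 to 2.33 CPM in g1 (log2 fold change -2.70 ± 0.39, edgeR adjusted p = 0.000336). In g2 no library exceeded 3 counts, and against that floor in each library LIN7A was at least 21.0-fold lower than in gCtl and at least 3.27-fold lower than in g1, a difference that was called between the guides (edgeR adjusted p = 0.0366) but was lost when any one of gCtl replicates 2, 3 and 4, g1 replicates 1 and 2 or g2 replicate 2 was left out (edgeR adjusted p from 0.0540 to 0.188). The paralogs LIN7B (-0.39 ± 0.35) and LIN7C (0.11 ± 0.20) were not called. VANGL1, a planar polarity membrane protein that binds Scribble, stood at 15.7, 15.1, 11.5, 12.8 and 13.2 CPM in gCtl, 7.67, 9.07 and 8.52 CPM in g1 and 5.92 and 2.76 CPM in g2, and fell by 1.01 on the log2 scale (SE 0.27, adjusted p = 0.0136). DLG5 (0.70 ± 0.29, adjusted p = 0.0885) and DLG3 (0.37 ± 0.15, adjusted p = 0.0807), which encode other Dlg proteins, were not called.

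In the Par list, 1 of 21 tested rose and 1 fell with both guides together (9.52% called, beside 19.2% of all genes). With g2 alone 4 were called (19.0%, beside 23.7%), 3 of them lower, among which was TIAM1, an exchange factor for Rac (-1.19 ± 0.32, edgeR adjusted p = 0.0130). MARK3, a kinase of the PAR-1 family that acts at the lateral membrane, was at 38.5 to 42.9 CPM in gCtl and 54.3 to 79.4 CPM in the guide libraries (0.78 ± 0.13, edgeR adjusted p = 0.00107). CAB39L, which encodes an MO25 adaptor of the LKB1 (PAR-4) kinase complex, was at 27.0, 25.7, 29.8, 20.9 and 27.6 CPM in gCtl and at 4.99 to 12.4 CPM in the guide libraries (-1.65 ± 0.25, adjusted p = 0.000433). STK11, for LKB1 itself (0.24 ± 0.21), and CDC42, the GTPase that binds Par6 (0.13 ± 0.16), were not called. The 14-3-3 genes, whose proteins are the PAR-5 family, were not called with both guides together, but YWHAE and YWHAG differed between them. YWHAE stood at 726 to 913 CPM in g1 and 456 to 498 CPM in g2 (-0.75 ± 0.18, adjusted p = 0.0257), and YWHAG at 53.4 to 71.0 CPM and 99.7 to 121 CPM (0.82 ± 0.17, adjusted p = 0.0121). The YWHAE call was lost without g1 replicate 1 (-0.65), g1 replicate 2 (-0.78) or g2 replicate 2 (-0.67), with edgeR adjusted p from 0.0569 to 0.103. The YWHAG call was lost without g1 replicate 2 (0.73, edgeR adjusted p = 0.0514) or g2 replicate 2 (0.69, edgeR adjusted p = 0.0611).

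Spindle orientation uses the lateral cortex that Scribble and Dlg mark, and 2 of its 9 partners tested rose (22.2% called, beside 19.2% of all genes). DYNC1H1, the heavy chain of cytoplasmic dynein, stood at 78.7 to 156 CPM in gCtl and 172 to 314 CPM in the guide libraries (1.08 ± 0.20, edgeR adjusted p = 0.00155). GPSM1, for a G-protein regulator related to the LGN adaptor, was at 0.528 to 2.0 CPM in gCtl and 1.31 to 5.48 CPM in the guide libraries, and its call (1.43 ± 0.49, adjusted p = 0.0451) rests on overlapping groups of low counts and was lost under 11 of 18 alternatives, among them each of 6 in which 1 library was left out (gCtl replicates 2, 3, 4 and 5 and g1 replicates 1 and 3, edgeR adjusted p from 0.0722 to 0.152). GPSM2, which encodes LGN (-0.34 ± 0.21), and NUMA1 (0.20 ± 0.17) were not called.

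**Figure D2:**
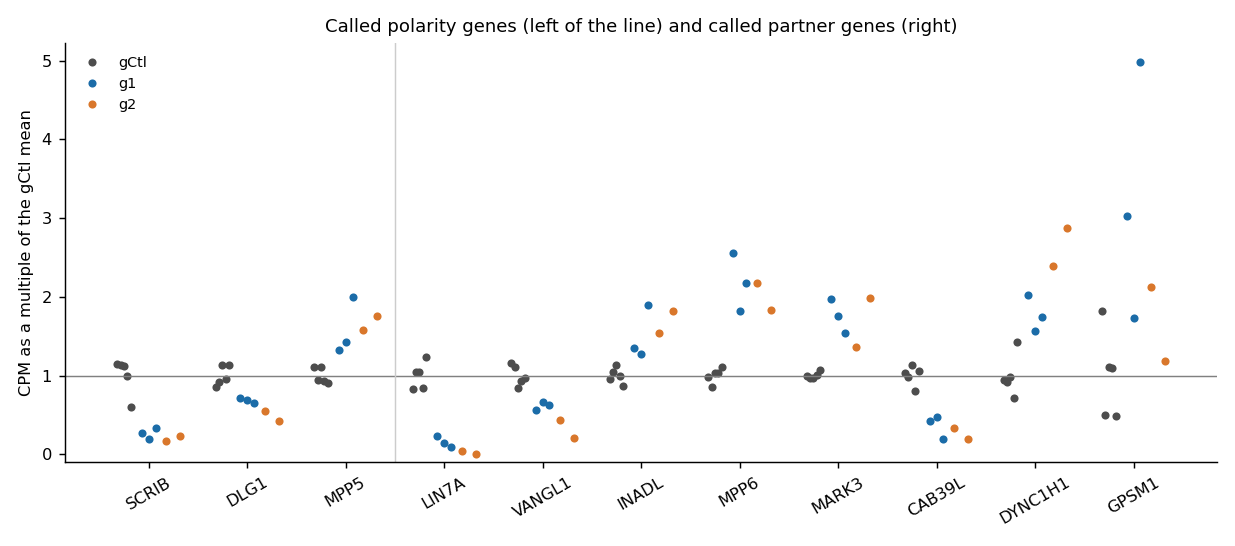
CPM of each library as a multiple of the gCtl mean (vertical axis), for the 3 called polarity genes (left of the line) and the 8 called genes of the 4 partner lists (right), in gCtl (grey), g1 (blue) and g2 (orange). LIN7A lay near 0 in both g2 libraries (0.359 and 0 CPM against a gCtl mean of 10.2 CPM). MPP5, INADL, MPP6, MARK3 and DYNC1H1 lay above their gCtl mean in all 5 guide libraries.

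The genes whose levels followed those of the 3 called members most closely were taken by Pearson's r of log2 CPM over the 10 libraries, as a description without a test. The 10 points are the same 3 groups for every gene, so any gene that separates them scores high. For SCRIB these were RPS19BP1 (r = 0.984), SORBS3 (0.979) and CDC25A (0.979), for DLG1 UTRN (0.987), MAN2A2 (0.980) and NFIA (0.978), and for MPP5 SCN2B (0.962), INADL (0.959) and SLC6A20 (0.956). INADL was therefore both the partner of MPP5 in the Crumbs complex and the gene with the second highest r to it.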

How the data were processed

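The authors sequenced polyA RNA of 10 libraries with Lexogen QuantSeq 3′ kits (single-end) and, per the labels, estimated transcript counts with kallisto (given as version 42.5). The deposited values are estimated counts for 199169 transcripts a library, which were not normalized, summed or pooled; the study's supplementary methods name an earlier GENCODE release than the one used here as the kallisto reference, and the strand setting is not given in the sources used here. Counts were summed per gene by symbol field and gene ID and rounded. RPM used all counts of a library, TPM used annotated lengths, and CPM used TMM-scaled totals. Genes with a protein-coding transcript and RPM over 3 in at least 20% of libraries (11640) were fitted with edgeR 4.0.16 (glmQLFit, glmQLFTest, TMM), as g1 and g2 together against gCtl and, in a second fit, as 3 groups, with Benjamini-Hochberg adjustment over all 11640. Members under the filter were read from a fit of 23413 genes of any biotype, each with 10 counts or more. Single values were compared with two-sided exact permutation tests, worked out over every split of the libraries, and log2(RPM + 1) used a pseudocount of 1, which understates the change of low genes. Replicate numbers only name the libraries, in accession order. Intervals cover 95%. A group at 3 counts or fewer in each library was given a bound in place of a fold, for counting error only. Totals of 3838803 to 8730468 counts set the precision of low genes.

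On simulated data with 200 of 11640 genes changed 3-fold, edgeR recovered 99.5% with both guides together, with 5 false calls, 96.5% for g1 and 94% for g2. Every simulated gene had the same dispersion, and no smaller fold was simulated. The recovery of changes near the 1.5-fold minimum, where several members lie, was therefore not measured. Transcript positions came from GENCODE release 29 on GRCh38, which placed 121 of the 122 transcripts of the members (the one left held 0 counts). Members and lists were chosen with earlier results of these data known, and the grouping by 3′ end was chosen after seeing the data. All 10 members are named, together with the list genes called with both guides or between the guides, and the 3 genes with the highest r to each called member. A few list genes outside that rule (partners not called or called with g2 alone, and single markers) were named after their values were seen. Alternatives were DESeq2, other size factors, other filters, limma on log2(RPM + 1) and log2(TPM + 1), glmTreat and each library left out.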

Additional observations from a re-analysis of the deposited data

Results flagged for a closer look

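SCRIB was at 2.64 CPM in gCtl replicate 5, below the other 4 gCtl libraries by 0.718 of the group's whole range. Among 11 groups of values checked this way 1 stood out, where chance alone gives about 1 in 20. The fold change of SCRIB stayed between -2.19 and -1.92 (log2) with each library left out in turn, gCtl replicate 5 included.

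Of 59 differences between the guides that were tested among the members and partner genes, 3 passed the adjusted p and the fold minimum with edgeR over all genes. Over all genes tested 4.98% passed in this comparison, so this count is near the share of all genes. LIN7A had a fitted log2 fold change of -3.10 for g2 against g1, where both g2 libraries held at most 3 counts, so that the bound of at least 3.27-fold lower is the firmer value. YWHAE had -0.75 and YWHAG 0.82, the g2 libraries lying outside the g1 range for both genes. Without g1 replicate 2 none of the 3 passed, and LIN7A was called under 9 of 18 alternatives and the other two under 14 of 18 each. The cause of these differences was not tested.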

How the results depend on the processing

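No paired analysis was possible because the labels give no replicate numbers (those used here only name the libraries). No call of a member was reversed, and 488 of 508 recomputed member values stayed on the same side of the threshold. These values cover 40 member results, most of which were not calls, so that share does not measure how stable the calls were. Of the values that changed side, 13 were lost calls and 7 were gained. MPP5 lost its call under 3 of 18 alternatives with both guides together, 4 with g1 and 5 with g2. Of the called partners, LIN7A, CAB39L and MPP6 passed under all 18 alternatives, VANGL1 and MARK3 under 17, DYNC1H1 under 16, INADL under 14 and GPSM1 under 7, and none was reversed. With glmTreat, which tests the fold of 1.5 itself, the calls shrank to 488 genes, 1 member (SCRIB) and 3 partners with both guides together, to 506, 1 and 3 with g1, to 802 genes and 5 partners with g2 and to 92 genes and 0 partners between the guides. With limma on log2(RPM + 1), 1 member was called with g1 and 1 (DLG1) between the guides, where 6 partners were called. Limma on log2(TPM + 1) also called 1 member between the guides, and library totals without TMM gave 6 partners there. Leaving out each library in turn gave 1703 to 2430 genes, 3 to 4 members and 6 to 12 partners with both guides together, 1252 (without g1 replicate 3) to 2262 genes and 1 to 3 members with g1, 1503 (without g2 replicate 2) to 3127 genes and 2 to 3 members with g2, and 266 (without g1 replicate 1) to 865 genes and 0 to 5 partners between the guides (312 genes and 0 partners without g1 replicate 2). The MPP5 call was lost under both limma scalings (0.58 and 0.51 with both guides), under glmTreat, for g1 without g1 replicate 3 and for g2 without g2 replicate 2 (0.66) or with library totals (0.58). LLGL2 was called under limma on log2(TPM + 1) (-0.66). The leading transcript share of PARD6B, 0.64 to 1.10 points higher in the guide libraries with each library left out, passed its threshold only without gCtl replicate 5 (1.10). The cause was not tested where a call changed.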
